A study of Homo sapiens with 9 samples.

Results

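The genes described here are the MCM helicase and origin licensing genes, taken by symbol as MCM2, MCM3, MCM4, MCM5, MCM6, MCM7, MCM10, CDC45, CDC6 and CDT1. All 10 had a row among the 6499 genes of the deposited table that sets doxorubicin against control. RNA was sequenced from WI-38 cells, a human lung fibroblast line that divides for a limited time in culture, at population doubling 30. Control cells were given the carrier DMSO. The doxorubicin group was given 1 μM doxorubicin, a topoisomerase II poison that breaks DNA, for 12 h. Both groups then stayed in medium with DMSO for 48 h, and each had 3 libraries. The comparison addresses which transcripts change when young fibroblasts are driven into senescence by doxorubicin. A further group of 3 libraries, given doxorubicin and then oridonin, was not analysed here. All libraries come from 1 cell line. The study's methods state for results in general that they rest on independent experiments, and the labels do not say of these libraries whether they were separate cultures, so p-values measure the spread between libraries, which may be technical.

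Before S phase, the origin recognition complex marks the start sites of replication, and CDC6 and CDT1 load the MCM2 to MCM7 ring around the DNA there as an inactive pair of helicases, a step called licensing. On entry into S phase, kinases and loading factors bring CDC45 and the GINS complex onto the ring, and MCM10 helps to set the helicase moving. In fibroblasts these genes are known to be expressed in dividing cells, under control of the E2F factors that RB restrains, and to fall when cells leave the cycle.

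Levels are in TPM, a unit that is corrected for transcript length and scaled to the same total in every library. The table names no unit, and TPM was inferred. It holds genes past a fold change of 1.2 and a p-value under 0.05 in the study's own comparison, so every gene in it was chosen on the same 6 libraries and no test here is independent of that choice. The number of reads per library is unknown. The listed genes made up 54.3 to 59.97% of that total. Across the genes tested, Pearson's r of the log2 levels was 0.992 to 0.995 within groups and 0.935 to 0.958 from one group to the other, as a description only. The limma model was fitted to log2(TPM + 1), a scale that understates the change of low genes, and took in 5721 genes whose 6 libraries averaged 1 TPM or more. SE is the standard error of its log2 fold change, and n counts libraries. A gene was called at a fold change over 1.2 and a Benjamini-Hochberg adjusted p under 0.05 over those genes. In bulk RNA, fewer cells that express a gene and less of its RNA per cell cannot be told apart.

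The promoters of the members were read first, since these genes are known as targets of one family of factors. RefSeq windows on GRCh38.p14, from 250 bases before to 50 bases after the transcription start, were at hand for 8 of the 10 members and not for MCM4 and MCM5. A stretch of 110 bases, of which 90 lie before the start, is shown for both loading factors, both activation factors, and the ring genes with the smallest and the largest fall. The stretches lie at chr17:40287789-40287898 (plus strand), chr16:88803699-88803808 (plus strand), chr6:52284723-52284832 (minus strand), chr7:100101378-100101487 (minus strand), chr22:19479830-19479939 (plus strand) and chr10:13161468-13161577 (plus strand) in the order shown, each written 5′ to 3′ on the strand of the gene. Capitals mark the 4 words searched as an E2F-type core, with TTTCCCG as the first word, TTTCGCG as the next, TTTGCCG as a further one and TTTGGCG as the last, on either strand.
CDC6: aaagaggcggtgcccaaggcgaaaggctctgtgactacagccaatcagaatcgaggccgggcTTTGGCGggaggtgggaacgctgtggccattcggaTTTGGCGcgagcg
CDT1: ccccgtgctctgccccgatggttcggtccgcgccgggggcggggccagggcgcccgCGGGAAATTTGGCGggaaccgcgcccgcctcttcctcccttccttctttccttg
MCM3: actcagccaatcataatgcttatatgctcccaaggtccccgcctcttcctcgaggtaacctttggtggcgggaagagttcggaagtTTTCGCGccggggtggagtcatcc
MCM7: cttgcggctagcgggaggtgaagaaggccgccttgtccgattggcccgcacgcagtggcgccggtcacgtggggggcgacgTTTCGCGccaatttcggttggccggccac
CDC45: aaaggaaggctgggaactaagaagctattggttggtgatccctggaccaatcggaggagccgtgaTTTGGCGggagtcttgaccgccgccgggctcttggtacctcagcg
MCM10: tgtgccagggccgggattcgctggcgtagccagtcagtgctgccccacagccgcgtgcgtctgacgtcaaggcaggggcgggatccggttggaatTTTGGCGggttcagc

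The E2F-type core occurred in 8 of the 8 member windows, against 8.69% of the 27305 genes with a RefSeq window of this length. In CDC6 and CDT1 the matches began 28 and 34 bases before the start, with a second match in each, and in CDT1 the first lies on the opposite strand. In CDC45 a match began 25 bases before the start, in MCM7 9 bases before it and in MCM3 4 bases before it. MCM10 held its match 6 bases after the start. MCM2 and MCM6 are not shown, and both held overlapping matches on the 2 strands. MCM7 and MCM3 each held another match farther upstream, outside the stretch shown. The word CCAAT on either strand occurred in 6 of the 8 member windows, against 35.7% of genes. The CHR-type words TTTGAA and TTCGAA, which belong to a class of element known from mitotic genes, occurred in 1 of the 8, that of MCM6, against 16.6% of genes. The words were chosen after these windows had been read, and a match describes letters, not binding.

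**Figure D1:**
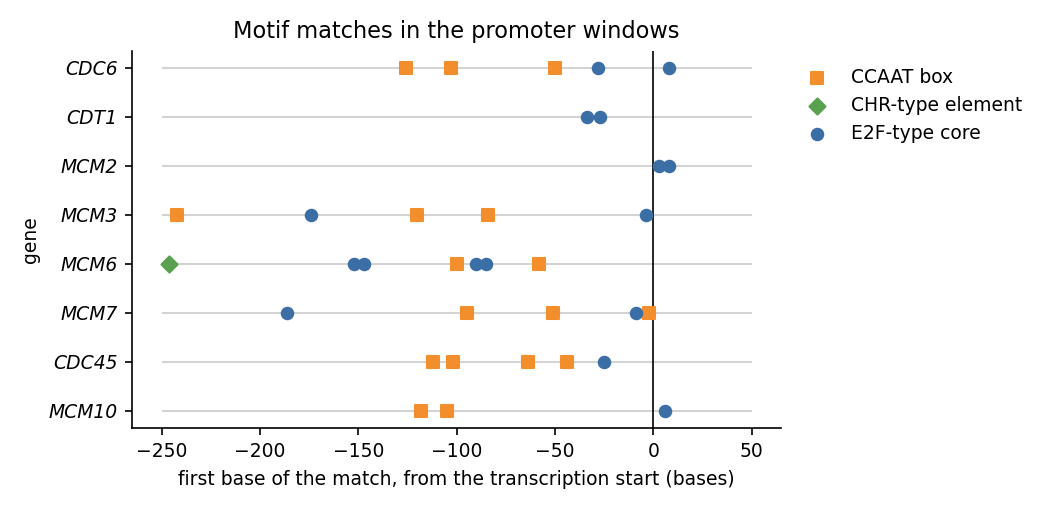
Matches to the 3 kinds of word in the RefSeq promoter windows of 8 members, plotted by the distance of the first base of each match from the transcription start, in bases, with 1 line per gene. An E2F-type core is present on every line, and the CHR-type element only on that of MCM6.

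After doxorubicin the transcripts of all 10 genes fell. In each of them every doxorubicin library lay below every control library, and all 10 were called lower in limma. Among all genes tested, 48.5% were called lower and 22.7% higher, and in 48.4% every doxorubicin library lay below every control library. On the deposited values all 10 members also fell more than 2-fold, against 6.28% of genes tested. That count was 8 after quantile normalization, without MCM3 and MCM6, and 7 after median ratio scaling, without MCM3, MCM4 and MCM6, against 4.26% and 4.18% of genes tested, and it was 9 without control library 2, where MCM4 missed it. These alternatives were added after the data were seen. Their median log2 fold change was -1.61, where the median of all genes tested was -0.28. The median of all genes tested depends on the scaling, at -0.02 after quantile normalization and -0.09 after scaling by median ratios, and relative to it the members' median was -1.33 on the deposited values, -1.36 after quantile normalization and -1.36 after median ratio scaling. Median ratio scaling divides a library by a common factor, which shifts all genes nearly alike, so this difference could change little under it. Both scalings were computed on genes chosen as changed. The split of all genes tested into lower and higher calls, 2775 to 1301, became 1664 to 1880 and 2151 to 2498 under those scalings, and all 10 members were called lower under both. Taken gene by gene, a two-sided exact permutation test gave p = 0.1 for each of the 10, the smallest that 3 libraries against 3 allow.

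**Figure D2:**
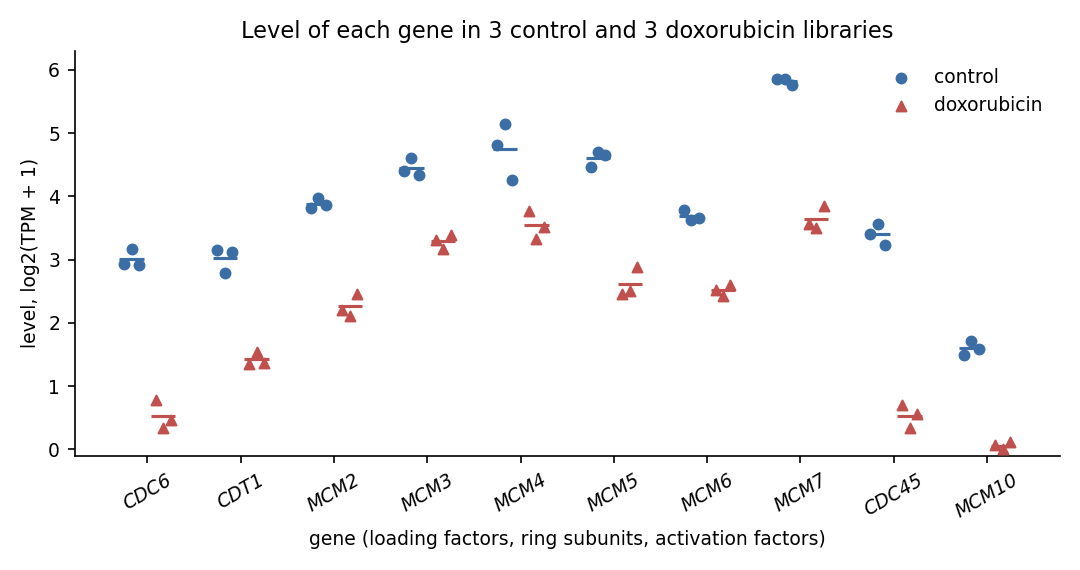
Level of each gene as log2(TPM + 1) in the 3 control (circles) and 3 doxorubicin (triangles) libraries, with a line at each group mean. In all 10 genes the triangles lie below the circles, and the doxorubicin values of CDC6, CDC45 and MCM10 lie near 0.

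CDC6 and CDT1, the factors that load the ring, both fell. CDC6 (ENSG00000094804, chromosome 17, 40287633 to 40304657), the ATPase that joins the origin recognition complex, stood at 6.62, 7.95 and 6.53 TPM in control libraries 1 to 3 and at 0.71, 0.26 and 0.38 TPM in doxorubicin libraries 1 to 3. The highest doxorubicin value lay far under the lowest control value, and the means, 7.03 ± 0.795 and 0.45 ± 0.233 TPM (SD, n = 3 each), differed 15.6-fold. The log2 fold change of CDC6 was -2.48 (SE 0.15, limma adjusted p = 4.45e-07), and with a pseudocount of 0.1 in place of 1 it was -3.77. CDT1 (ENSG00000167513, chromosome 16, 88803213 to 88809258), the partner that carries the ring to the origin, stood at 7.93, 5.91 and 7.67 TPM in control and at 1.56, 1.91 and 1.58 TPM after doxorubicin. Control library 2 was the lowest of its group for CDT1, although it was the highest of its group for 8 of the 10 members. The mean of CDT1 fell from 7.17 ± 1.10 in control to 1.68 ± 0.197 TPM after doxorubicin (SD, n = 3 each), a fitted log2 difference of -1.60 (SE 0.14, limma adjusted p = 7.2e-06). The control levels of CDC6 and CDT1 overlapped, and after doxorubicin CDT1 lay above CDC6 in every library.

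The ring genes all fell, by unequal amounts. MCM7 (ENSG00000166508, chromosome 7, 100092728 to 100101940) had the highest level of the 10 in control and the largest fall of the ring, from 56.63, 57.01 and 53.16 TPM in control to 10.83, 10.29 and 13.33 TPM after doxorubicin. Of its control mean, 55.6 ± 2.12 TPM, 20.7% was left at 11.5 ± 1.62 TPM (SD, n = 3 each), a fitted log2 difference of -2.19 (SE 0.10, limma adjusted p = 8.35e-08). MCM5 (ENSG00000100297, chromosome 22, 35400063 to 35425430), which forms with MCM2 the gate through which DNA enters the ring, followed closely. Its values were 20.96, 25 and 24.28 TPM in control and 4.50, 4.67 and 6.34 TPM after doxorubicin. The log2 fold change of MCM5 was -1.99 (SE 0.14, limma adjusted p = 1.19e-06). MCM2 (ENSG00000073111, chromosome 3, 127598223 to 127622436), a subunit that also binds histones, stood at 13.08, 14.73 and 13.54 TPM in control and at 3.62, 3.33 and 4.48 TPM after doxorubicin. Its mean fell 3.62-fold, from 13.8 ± 0.851 in control to 3.81 ± 0.598 TPM after doxorubicin (SD, n = 3 each), a fitted log2 difference of -1.63 (SE 0.13, limma adjusted p = 3.3e-06).

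MCM3, MCM4 and MCM6 fell least of the 10. MCM3 (ENSG00000112118, chromosome 6, 52264009 to 52284881), the neighbour of MCM5 in the ring, stood at 20.03, 23.39 and 19.10 TPM in control and at 8.94, 7.98 and 9.44 TPM after doxorubicin. Of its mean 42.2% was left, the largest part among the members, and the log2 fold change was -1.16 (SE 0.11, limma adjusted p = 1.92e-05). MCM6 (ENSG00000076003, chromosome 2, 135839626 to 135876426), one of the subunits of the catalytic core with MCM4 and MCM7, had values of 12.76, 11.39 and 11.68 TPM in control and 4.72, 4.38 and 5.05 TPM after doxorubicin. The log2 fold change of MCM6 was -1.18 (SE 0.11, limma adjusted p = 1.45e-05). MCM4 (ENSG00000104738, chromosome 8, 47960185 to 47978160), a substrate of the DDK kinase at the start of S phase, varied most between control libraries, at 27.15, 34.43 and 18.14 TPM, and stood at 12.68, 9.04 and 10.44 TPM after doxorubicin. The coefficient of variation in control was 30.7% for MCM4 and 3.82 to 15.3% for the other members, and the lowest control value still lay above the highest doxorubicin value. The log2 fold change of MCM4 was -1.201 (SE 0.21, limma adjusted p = 0.0008), and it ran from -1.44 without control library 3 to -0.998 without control library 2.

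CDC45 and MCM10, which act when the loaded ring is switched on, both fell to under 1 TPM, as did CDC6. CDC45 (ENSG00000093009, chromosome 22, 19479459 to 19520612), the factor that joins the ring and GINS in the working helicase, stood at 9.59, 10.85 and 8.39 TPM in control and at 0.62, 0.26 and 0.47 TPM after doxorubicin. Its mean fell 21.4-fold, from 9.61 ± 1.23 in control to 0.45 ± 0.181 TPM after doxorubicin (SD, n = 3 each), with 4.68% left. The log2 fold change of CDC45 was the largest fall of the 10 at -2.87 (SE 0.14, limma adjusted p = 1.27e-07), or -4.19 with a pseudocount of 0.1. MCM10 (ENSG00000065328, chromosome 10, 13161554 to 13211104) stood at 1.82, 2.28 and 2.01 TPM in control and at 0.05 and 0.08 TPM in doxorubicin libraries 1 and 3, and was listed at 0 in doxorubicin library 2. Its mean over the 6 libraries was 1.04 TPM, so that it passed the filter through the control libraries. CDC45 and CDC6, with means of 0.45 TPM each after doxorubicin, also passed it through the control libraries. The fitted log2 fold change of MCM10 was -1.54 (SE 0.13, limma adjusted p = 6.31e-06) and -3.93 with a pseudocount of 0.1, so its size depends on that setting and its place among the 10 moved from between CDT1 and MCM4 to between CDC45 and CDC6.

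**Figure D3:**
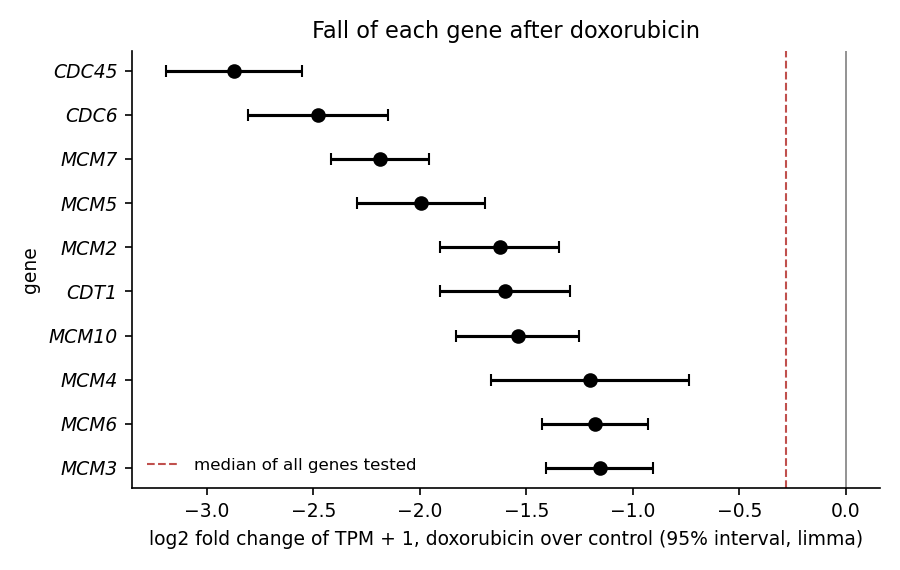
Log2 fold change of TPM + 1, doxorubicin over control, for the 10 genes in order of their fall, with 95% intervals from limma and a dashed line at -0.28, the median of all genes tested. Each interval overlaps that of the next gene in the order, and all 10 lie to the left of the dashed line.

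In the order of falls on this scale, CDC45 came first and was followed by CDC6, MCM7, MCM5, MCM2, CDT1, MCM10, MCM4, MCM6 and MCM3. The 95% intervals of all 9 pairs of neighbours in that order overlapped. Several genes farther apart in the order also overlapped, such as MCM2 and MCM3. The interval of MCM7, -2.42 to -1.96, lay below those of MCM3, -1.41 to -0.90, MCM4, -1.66 to -0.74, and MCM6, -1.43 to -0.93. Among all 5721 genes tested, CDC45 ranked 41st by the size of its fall and MCM3 260th. Doxorubicin library 2 was the lowest of its group for 8 of the 10 members and doxorubicin library 3 the highest for 6.

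The proteins MCM2 to MCM7 enter the ring in equal numbers, and their transcripts differed in level. In control the order was MCM7, MCM4, MCM5, MCM3, MCM2 and MCM6, in which MCM4 overlapped MCM5 and MCM5 overlapped MCM3. After doxorubicin it was MCM7, MCM4, MCM3, MCM5, MCM6 and MCM2, in which MCM7 overlapped MCM4, MCM4 overlapped MCM3, MCM5 overlapped MCM6 and MCM6 overlapped MCM2. The sum of the 6 subunits was 150.61, 165.95 and 139.90 TPM in control and 45.29, 39.69 and 49.08 TPM after doxorubicin. Its mean fell 3.405-fold, from 152 ± 13.1 in control to 44.7 ± 4.72 TPM after doxorubicin (SD, n = 3 each), with 29.4% left.

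The subunits came closer to each other in level. The highest subunit of a library exceeded the lowest 4.66 ± 0.300-fold in control and 3.19 ± 0.277-fold after doxorubicin (SD, n = 3 each), with no overlap. MCM7 made up 36.7 ± 1.999% of the summed level in control and 25.7 ± 1.64% after doxorubicin, and MCM5 15.4 ± 1.75% and 11.5 ± 1.504% (SD, n = 3 each). MCM3 moved the other way, from 13.7 ± 0.399% to 19.7 ± 0.438%, as did MCM4, from 17.2 ± 3.95% to 24.0 ± 3.53%, and MCM6, from 7.89 ± 0.895% to 10.6 ± 0.398% (SD, n = 3 each). For these 5 subunits the shares of the groups did not overlap, and for MCM2, at 9.08 ± 0.527% and 8.50 ± 0.576%, they did. Such shares are taken within a library and do not depend on a factor that scales the whole library. The ratio of MCM7 to MCM3, a pair chosen after their values were seen, was 2.83, 2.44 and 2.78 in control and 1.21, 1.29 and 1.41 after doxorubicin (exact permutation test, p = 0.1, the smallest that 3 against 3 allow).

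**Figure D4:**
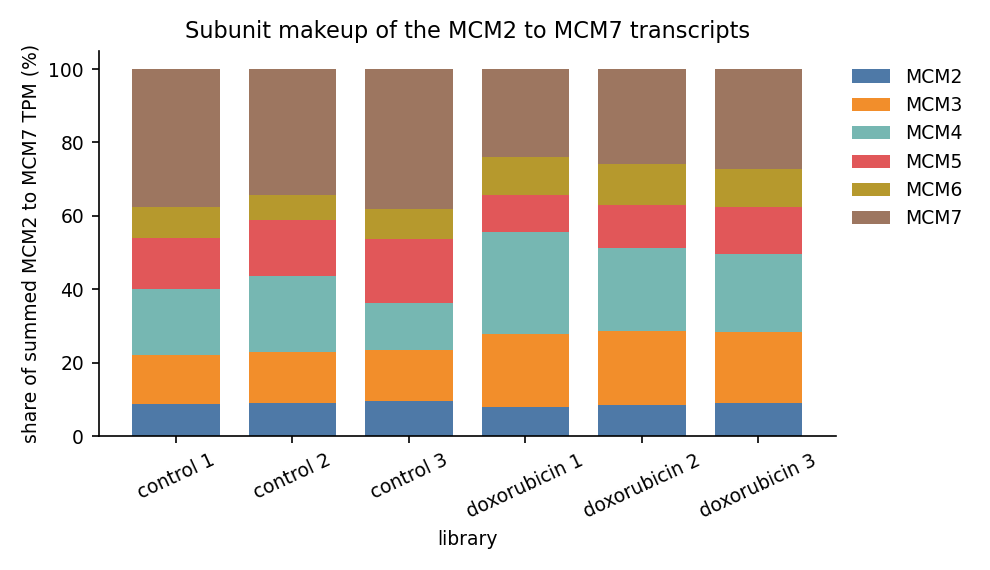
Share of each subunit in the summed TPM of MCM2 to MCM7, in percent, stacked to the whole for each of the 6 libraries. The block of MCM7 is smaller in every doxorubicin library than in every control library, and those of MCM3, MCM4 and MCM6 are larger.

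Several members share a start region with a gene on the opposite strand, by GENCODE release 29. The starts used here are the outermost ends of the genes. Those of MCM2, CDC45 and MCM7, among others, differ from the RefSeq starts of the promoter windows. The distances and overlaps below hold for the GENCODE ends only. The starts of MCM2 and TPRA1, a gene for a transmembrane protein, lie 44 bp apart, and the genes overlap by 45 bp. TPRA1 stood at 25.54, 24.62 and 23.15 TPM in control and at 27.6, 26.47 and 26.89 TPM after doxorubicin. The groups did not overlap, but its log2 fold change of 0.14 was not called (limma adjusted p = 0.14), and it was 0.26 after quantile normalization (limma adjusted p = 0.00931) and 0.36 after median ratio scaling (limma adjusted p = 0.00265). The ratio of MCM2 to TPRA1, which needs no scaling between libraries, fell from 0.565 ± 0.0464 to 0.141 ± 0.0222 (SD, n = 3 each; exact permutation test, p = 0.1).
CDC45 and UFD1, which encodes a cofactor of the p97 unfoldase, start 244 bp apart. UFD1 stood at 108.95, 115.91 and 113.6 TPM in control and at 122.7, 115.97 and 122.66 TPM after doxorubicin. Its log2 fold change was 0.09 (limma adjusted p = 0.166), which was not called, 0.01 after quantile normalization (limma adjusted p = 0.905) and 0.32 after median ratio scaling (limma adjusted p = 0.00358). By the cut used here UFD1 was thus called higher after median ratio scaling, and TPRA1 after either scaling. Like every listed gene, TPRA1 and UFD1 had passed the thresholds of the study's own comparison. The ratio of CDC45 to UFD1 went from 0.0852 ± 0.0102 to 0.00371 ± 0.00141 (SD, n = 3 each; exact permutation test, p = 0.1).
MCM4 and PRKDC, the gene of the DNA-dependent protein kinase, start 2 bp apart. PRKDC had 57.66, 55.67 and 49.02 TPM in control and 29.97, 25.65 and 38.93 TPM after doxorubicin, and it was called lower, with a log2 fold change of -0.78 (limma adjusted p = 0.000748). The ratio of MCM4 to PRKDC, 0.486 ± 0.125 in control and 0.348 ± 0.0776 after doxorubicin (SD, n = 3 each), overlapped between the groups (exact permutation test, p = 0.2). MCM7 overlaps AP4M1 on the opposite strand by 392 bp and holds the microRNA genes MIR25, MIR93 and MIR106B in its span, MCM2 overlaps the antisense gene AC023593.1 by 2331 bp, and these were not analysed here. Whether reads were counted by strand is not stated, so reads in the overlaps of MCM2 and MCM7 may belong to either gene.

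The genes around licensing and helicase activation were counted in lists of 4 to 19 genes, and genes without a row were not analysed here. Only genes past the study's thresholds are listed, so a gene without a row may be one that did not change. The counts therefore cover genes already chosen as changed. Some low genes also passed the filter only through the control libraries, so the filter favoured their being called lower. In the lists of this section these included ORC1, DTL, CCNF, PRIM1, CLSPN and HROB, with doxorubicin means under 1 TPM. Their calls add no independent support. Of the origin recognition and loading partners, 5 of 10 genes had a row, and all 5 were called lower, with a median log2 fold change of -1.22. The counts of this and the following lists stand beside the 48.5% called lower among all genes tested, and lists of a few genes say little against that share. That share was taken over the same chosen genes and does not correct for the choice. ORC6, a subunit of the origin recognition complex, fell from 11.1 ± 0.419 in control to 3.77 ± 0.367 TPM after doxorubicin (SD, n = 3 each), a fitted log2 difference of -1.34, and ORC1, its ATPase subunit, from 1.84 ± 0.115 in control to 0.217 ± 0.0611 TPM after doxorubicin (SD, n = 3 each). MCMBP, which binds free MCM proteins, fell least, from 18.6 ± 0.229 in control to 13.6 ± 1.199 TPM after doxorubicin (SD, n = 3 each). After quantile normalization 3 of the 5 were called. Geminin (GMNN), the inhibitor of CDT1, was among the genes that fell, from 20.8 ± 2.36 in control to 8.07 ± 0.818 TPM after doxorubicin (SD, n = 3 each), and it was named after its value was seen.
Of the genes for turnover of CDT1 and CDC6, 4 of 10 had a row, and the 3 that were tested were called lower, a count to be read against the same 48.5%. DTL, the substrate receptor that directs CDT1 to degradation in S phase, fell from 3.83 ± 0.685 in control to 0.17 ± 0.0458 TPM after doxorubicin (SD, n = 3 each), a fitted log2 difference of -2.04, and SKP2, another such receptor, from 6.47 ± 0.240 in control to 2.73 ± 0.580 TPM after doxorubicin (SD, n = 3 each). USP37 stayed under the filter, at 0.52 ± 0.139 and 0.193 ± 0.0681 TPM (SD, n = 3 each).

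Of the 16 genes of helicase activation, 15 had a row, and all 14 that were tested were called lower, with a median log2 fold change of -0.97. Among them GINS1, CDC7, TICRR and CCNE2 passed the filter only through the control libraries, with doxorubicin means of 0.827, 0.94, 0.71 and 0.283 TPM. With the filter at a mean of 5 TPM, 6 genes of helicase activation were called lower, and 0 of the genes for turnover of CDT1 and CDC6. CCNA2, the gene of cyclin A2, fell from 13.4 ± 1.61 in control to 1.17 ± 0.153 TPM after doxorubicin (SD, n = 3 each), a fitted log2 difference of -2.72, and CDK2, its kinase partner, from 31.8 ± 4.79 in control to 17.4 ± 4.30 TPM after doxorubicin (SD, n = 3 each). MTBP, a partner of the factor that brings CDC45 to the ring, stood at 1.08 ± 0.205 and 0.437 ± 0.182 TPM (SD, n = 3 each) and was not tested.
Of the replicative polymerases and fork protection genes, 13 of 19 had a row, and 11 were called lower and 1 higher, with a median of -0.83. PRIM1, the catalytic subunit of primase, fell from 2.90 ± 0.286 in control to 0.393 ± 0.139 TPM after doxorubicin (SD, n = 3 each), a fitted log2 difference of -1.49, and CLSPN, the gene of the checkpoint adaptor claspin, from 2.20 ± 0.430 in control to 0.207 ± 0.0777 TPM after doxorubicin (SD, n = 3 each). POLD4, the smallest subunit of polymerase delta, was the gene called higher, from 61.3 ± 3.94 in control to 109 ± 7.15 TPM after doxorubicin (SD, n = 3 each), a fitted log2 difference of 0.82 (limma adjusted p = 1.11e-05). POLA2, the second subunit of polymerase alpha, was not called and overlapped between the groups, at 8.07 ± 2.28 and 8.04 ± 0.735 TPM (SD, n = 3 each). Like every listed gene, POLA2 had passed the thresholds of the study's own comparison, so the 2 comparisons differ on it.

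MCM9, an MCM paralog outside the ring, and HROB, which was counted in the same list though not a paralog, had smaller differences than the ring genes. These were on the log2(TPM + 1) scale, which understates the change of low genes. Of the 4 genes in the list of MCM paralogs outside the ring, 3 had a row and 2 were tested. HROB, which brings the MCM8 and MCM9 helicase to sites of repair, had a log2 fold change of -0.60 (limma adjusted p = 0.00697) and MCM9 of -0.44 (limma adjusted p = 0.0305). The control and doxorubicin means were low, at 1.88 and 0.89 TPM for HROB and at 1.83 and 1.09 TPM for MCM9. Both were called lower, and none was after quantile normalization, 1 after median ratio scaling, and 1 each without control library 3, without doxorubicin library 1 and without doxorubicin library 2. MCM8 stayed under the filter, at 1.09 ± 0.309 and 0.55 ± 0.0889 TPM (SD, n = 3 each). For ring unloading, 2 of 5 genes had a row and both were called lower, against 48.5% of all genes tested. TRAIP and LRR1, genes for a ubiquitin ligase and a substrate receptor that mark the ring for removal, had log2 fold changes of -0.79 and -0.69, and 1 of the 2 was called after quantile normalization.
Of the 13 E2F and RB genes, 9 had a row and 6 were tested, of which 5 were called lower, against 48.5% of all genes tested, with a median of -0.63. After quantile normalization 3 were called lower. E2F1, an activator of S phase genes, fell from 7.34 ± 0.272 in control to 1.60 ± 0.206 TPM after doxorubicin (SD, n = 3 each), a fitted log2 difference of -1.68, and TFDP1, the gene of its partner DP1, from 61.6 ± 5.72 in control to 39.1 ± 2.08 TPM after doxorubicin (SD, n = 3 each), a fitted log2 difference of -0.64. TFDP2 was not called and overlapped between the groups, at 7.97 ± 2.11 and 6.11 ± 1.13 TPM (SD, n = 3 each), although it too had passed the study's own thresholds. E2F2 stayed under the filter, at 0.17, 0.29 and 0.40 TPM in control and 0.01, 0 and 0 TPM after doxorubicin.

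**Figure D5:**
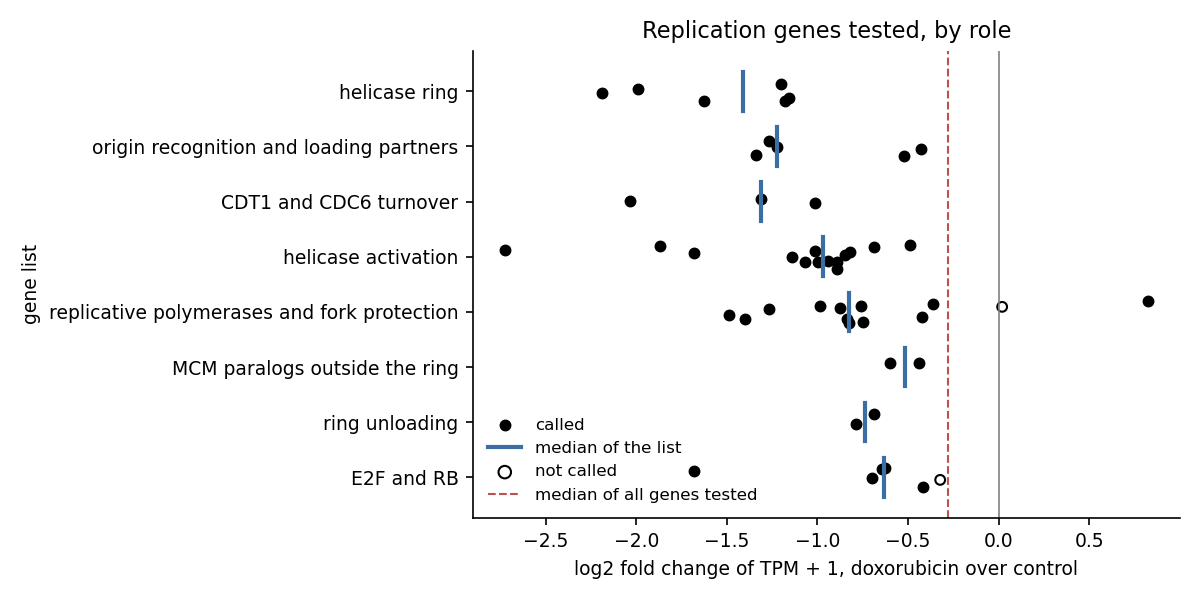
Log2 fold change of TPM + 1, doxorubicin over control, of each tested gene in the 8 lists around the helicase, with filled points for genes called, open points for genes not called, a bar at the median of each list and a dashed line at -0.28, the median of all genes tested. POLD4 is the point called above 0, and the list medians run from -1.41 for the ring to -0.52 for the list of MCM paralogs outside the ring, which includes HROB.

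Outside these lists, the genes whose profile over the 6 libraries lay nearest to the median profile of the members were H2AZ1, KIF20B, DIAPH3, CDCA7 and the gene with identifier ENSG00000256663, which has no symbol in the table. The measure was the root mean square difference of log2(TPM + 1), each gene being set to 0 at its control mean. It was 0.0492 for H2AZ1, the gene of a histone variant, whose mean went from 428 to 137 TPM. It was 0.0906 for KIF20B, a mitotic kinesin, 0.0969 for DIAPH3, an actin nucleator, 0.108 for CDCA7, a chromatin factor, and 0.109 for the gene without a symbol.

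The label of lung fibroblasts was set beside marker genes, which cannot test it here. Only genes past the study's thresholds are listed, so a marker without a row may be expressed and unchanged. Of 11 fibroblast markers 6 had a row, with summed levels of 10316 to 10640 TPM in control and 9424 to 11501 TPM after doxorubicin, and 5 were called lower and 1, FN1, higher. The sums are mostly FN1, COL1A1 and COL1A2. The largest fall was that of COL3A1, a collagen gene, at 267 ± 22.9 and 95.4 ± 13.3 TPM (SD, n = 3 each), a fitted log2 difference of -1.48 (limma adjusted p = 2.1e-06). PDGFRA, a growth factor receptor gene and the lowest of the 6 in level, had a log2 fold change of -0.91, and FN1, the highest in level and the largest rise, of 0.45. Of 5 epithelial markers, KRT8 and KRT18 had a row and summed to 33.8 to 36.5 TPM in control and 48.2 to 51.3 TPM after doxorubicin, and KRT18 was called higher. Of 4 leukocyte markers, CD68 and PTPRC had a row and summed to 45.0 to 49.0 and 87.4 to 93.7 TPM. CD68, a lysosomal protein gene that fibroblasts also express, was called higher, and PTPRC, which defines leukocytes, lay at 0.01 to 0.62 TPM. None of the 4 endothelial markers had a row, which does not show whether they were expressed. The part of these differences in the fall of the members was not tested.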

How the data were processed

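RNA from WI-38 cells was sequenced in 9 libraries, and the table used here holds 6 of them, 3 control and 3 doxorubicin, whose columns match the sample titles. The unit of the deposited table is not named by the authors, and its values were taken as TPM, since RSEM stands in the submitters' processing notes and no library sums past the fixed total of that unit. Those notes also name CASAVA, HISAT2, StringTie, DESeq2 and edgeR, without versions, and the mouse build GRCm38, although the identifiers are those of human genes, and the human build is not given in the sources used here. Read as FPKM, the values of a library would differ by a common factor. The scaling alternatives cover differences of that factor between libraries. They do not cover a factor shared by all libraries, which would shift the genes past the filter and the weight of the pseudocount. The authors' columns of fold changes, p-values and group means were used only to check that all 6499 rows pass the fold change of 1.2 and p of 0.05 of the study.

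Genes averaging 1 TPM or more over the 6 libraries were kept, a pseudocount of 1 was added before log2, and group means were compared in R 4.3.3 by limma 3.58.1 with a trended, robust eBayes. Genes of the lists were named by rule: the largest fall, the largest rise and the highest and lowest mean level of each list, genes of the pathway lists that were not called, and the 5 nearest profiles. Genes of the pathway lists that passed the filter only through the control libraries were named as well. The members, lists and tests were chosen with earlier results of these data known. Positions come from GENCODE release 29 on GRCh38 (6462 of 6499 identifiers matched). Opposite-strand neighbours were protein-coding genes with a start within 1000 bp. Promoter windows come from RefSeq on GRCh38.p14, 1 per gene, the one listed first. Alternatives were a pseudocount of 0.1, no filter or a mean of 5 TPM, quantile normalization, median ratio scaling, the replicate block, an unadjusted p, a fold change of 2, and fits without each library. The 2-fold count under both scalings and without each library was added after the data were seen. Python 3.11.15, NumPy 2.4.6, pandas 2.3.3, SciPy 1.17.1 and Matplotlib 3.10.9 were used for the rest.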

Additional observations from a re-analysis of the deposited data

How the results depend on the processing

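All 117 alternative values of the 10 members kept their direction and their side of the threshold. All 10 members were called lower in each alternative except the filter at a mean of 5 TPM, where the 7 that were tested were called, since CDC6, CDT1 and MCM10 lie below it. MCM2, MCM6 and CDC45 passed that filter through the control libraries, with doxorubicin means of 3.81, 4.72 and 0.45 TPM. Their calls under it add no independent support. Among all genes, the count called lower moved from 2775 to 1664 after quantile normalization and to 359 at a fold change over 2, and the count called higher from 1301 to 2498 after median ratio scaling and to 104 at a fold change over 2. With each library left out in turn they ran from 2520 to 2809 and from 1189 to 1275. The log2 ratio of the summed level of MCM2 to MCM7 was -1.77, against -1.53 after quantile normalization and -1.54 after median ratio scaling, and it ran from -1.84 to -1.69 with each library left out in turn. Of 126 alternative counts of the pathway lists, 104 lay within 1.5 times the main count. Those that did not came from the fold change over 2 (7), the mean of 5 TPM (6), quantile normalization (4), median ratio scaling (1), no filter (1, where 8 E2F and RB genes were called lower) and the fits without 1 library given with the MCM paralogs.

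With the replicate number as a replicate block, 10 members and 2670 genes were called lower. Whether the numbers pair the samples is not known, and the labels name no shared batch. Same-numbered libraries of the 2 groups had correlations of -0.0627, -0.193 and -0.23 in their deviations from the group means. With 3 libraries per group these deviations are tied to each other, so such correlations cannot decide it. The read depth is unknown, so the precision of levels near 0, such as those of MCM10, CDC45 and CDC6 after doxorubicin, could be judged only from the 3 libraries.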
